A study of Mus musculus with 14 samples.

Results

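The Ikaros family of zinc-finger transcription factors was followed in 14 mouse thymic lymphomas measured on exon arrays, 7 Vav-SB and 7 CD4-SB. Its members were taken as the probe sets annotated to Ikzf1, Ikzf2 or Ikzf3 alone. Of the 3 genes, 2 were measured, Ikzf1 with 7 probe sets and Ikzf2 with 11, among 15803 named genes. No probe set used here carried the symbol Ikzf3, so Ikzf3 (Aiolos) is not analysed here. A gene level is the mean of the log2 values of a gene's probe sets, and each probe set reads a short stretch of the transcript, often part of an exon.

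Both models carry Sleeping Beauty (SB) transposons, DNA elements that jump and mutate genes where they insert, and the study asked how the cell of origin shapes which mutations are selected in T-cell acute lymphoblastic leukaemia. As background, Vav1 control elements are active in blood cells from the stem and progenitor stage on, and Cd4 control elements in the T lineage from the stage before and at double-positive thymocytes. The labels give the model and the diagnosis; the sources used here do not give alleles, ages or the animal behind each tumour, and normal thymus was not analysed here. Tumour titles open with a number, and the labels do not say what it stands for. Each Vav-SB tumour has its own, while the 7 CD4-SB tumours have 4, since replicates 1 and 2 share one and replicates 5, 6 and 7 share another. The p-values therefore cover only the spread among the arrays as deposited, which may not all come from separate animals. The CD3 genes Cd3d, Cd3e and Cd3g, which mark T cells, were high throughout, above the median gene level of 7.22. They lay between 11.52 and 12.47 in Vav-SB tumours and between 11.07 and 12.09 in CD4-SB tumours. The mean level of 6 T-lineage genes, which include them, was 11.14 to 11.43 in Vav-SB and 10.17 to 11.08 in CD4-SB. Of the 6, Cd3g and Cd2 were called higher in Vav-SB and 0 lower (limma, adjusted p below 0.05). Of all genes, 7.28% were called higher and 7.18% lower. Of the 6, 5 had an unadjusted p below 0.05 (limma). The Cd2 call ended without any 1 of 11 tumours.

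Ikzf1 encodes Ikaros, which binds DNA through zinc fingers near its amino end and pairs with itself or its relatives through fingers near its carboxyl end. Forms that lack the DNA-binding fingers can still pair and then block the full-length protein, and loss of Ikaros is a common step in mouse T-cell leukaemia, where it often goes with active Notch1. Ikzf2 encodes Helios, which is found in early T-lineage cells, regulatory T cells and NK cells.

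Ikzf1 was 1.83-fold higher in Vav-SB tumours, and the difference came mainly from 5 of the 7 CD4-SB tumours. Its level in Vav-SB replicates 1 to 7 was 11.14, 11.22, 11.04, 10.73, 10.93, 11.47 and 10.74. In CD4-SB replicates 1 to 7 it was 9.77, 9.84, 10.11, 11.05, 9.58, 9.87 and 10.93. CD4-SB replicates 4 and 7 thus lay inside the Vav-SB range, and the other 5 CD4-SB tumours lay below every Vav-SB tumour. The means were 11.04 ± 0.26 for Vav-SB tumours and 10.16 ± 0.59 for CD4-SB tumours (SD, n = 7 each), a log2 difference of 0.87 ± 0.22 (SE; limma, adjusted p = 0.0182). Of all genes, 14.5% passed the adjusted threshold of 0.05, with 7.28% higher in Vav-SB. The 2 models overlapped in Ikzf1, whereas 4.04% of all genes had no overlap between the 7 and 7 tumours.

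**Figure D1:**
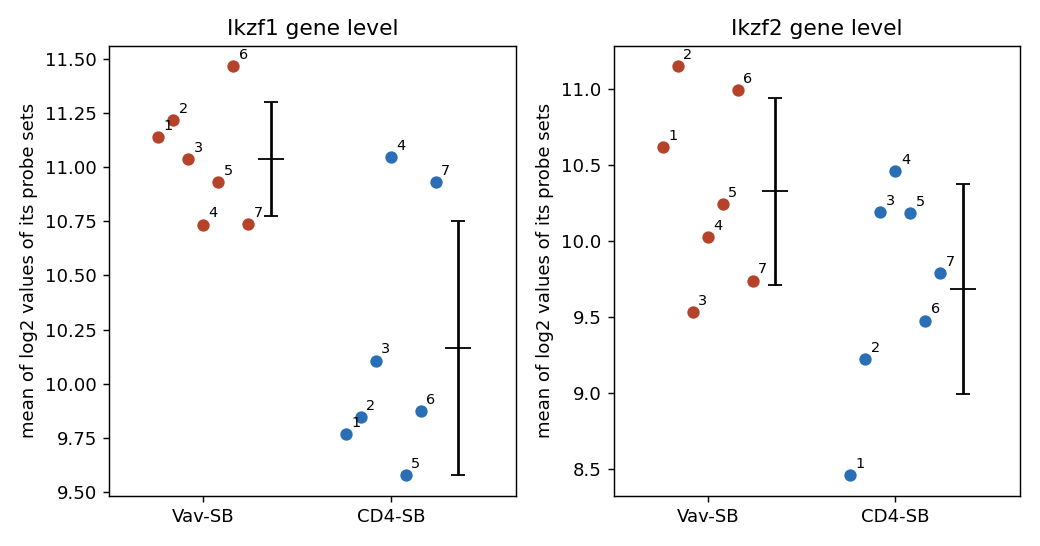
Gene levels of Ikzf1 (left panel) and Ikzf2 (right panel), as means of log2 probe set values, in Vav-SB (red) and CD4-SB (blue) tumours; numbers are replicates, horizontal marks are means and bars are SDs (n = 7 each). For Ikzf1, CD4-SB replicates 4 and 7 sit among the Vav-SB tumours at 11.05 and 10.93, and the other 5 CD4-SB tumours lie at or below 10.11.

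The 7 Ikzf1 probe sets pointed the same way. Each of the 7 was higher on average in Vav-SB, with log2 differences from 0.78 to 1.06, and 4 of the 7 passed with adjustment over all 179496 probe sets, against 8.52% of all probe sets called in either direction and 4.53% called higher in Vav-SB. Over the Ikzf1 and Ikzf2 probe sets together the count was also 4. This joint count was 2 without any 1 of Vav-SB replicates 1, 2, 3, 5 and 6 or of CD4-SB replicates 1, 2, 3, 5 and 6. Without CD4-SB replicate 4 or 7 it was 7. The probe set with the smallest adjusted p was 4346241, at 11.71 to 12.32 in Vav-SB (median 12.13) and 10.97 to 11.83 in CD4-SB (median 11.12; limma, adjusted p = 0.00471). Only CD4-SB replicate 7, at 11.83, reached into its Vav-SB range. The largest difference, 1.06, was that of probe set 5260363, at 9.75 to 10.19 in Vav-SB (median 10.04) and 8.12 to 10.01 in CD4-SB (median 8.62). There CD4-SB replicate 4 was the one tumour of its model inside the Vav-SB range.

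No Ikzf1 probe set was called apart from the rest of its gene. In limma's diffSplice, which tests each probe set against the others of its gene, the Ikzf1 differences ran from -0.11 to 0.22 on the log2 scale. None of the 7 passed, and 0 had an unadjusted p below 0.05 (lowest 0.439), while 1.33% of all probe sets passed. The test counts spread that a gene's probe sets share over tumours as error, so it can miss a probe set that differs. Taken tumour by tumour, each probe set was set against its gene in the same tumour and then against the median of the 14 tumours. These relative levels stayed between -0.52 and 0.50 for Ikzf1. None of its probe sets stood apart in 1 tumour by Dixon's test in either model, against 6.5% of all probe sets in Vav-SB and 6.43% in CD4-SB. Positions of the probe sets were not used here, so which exons they cover is not stated.

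**Figure D2:**
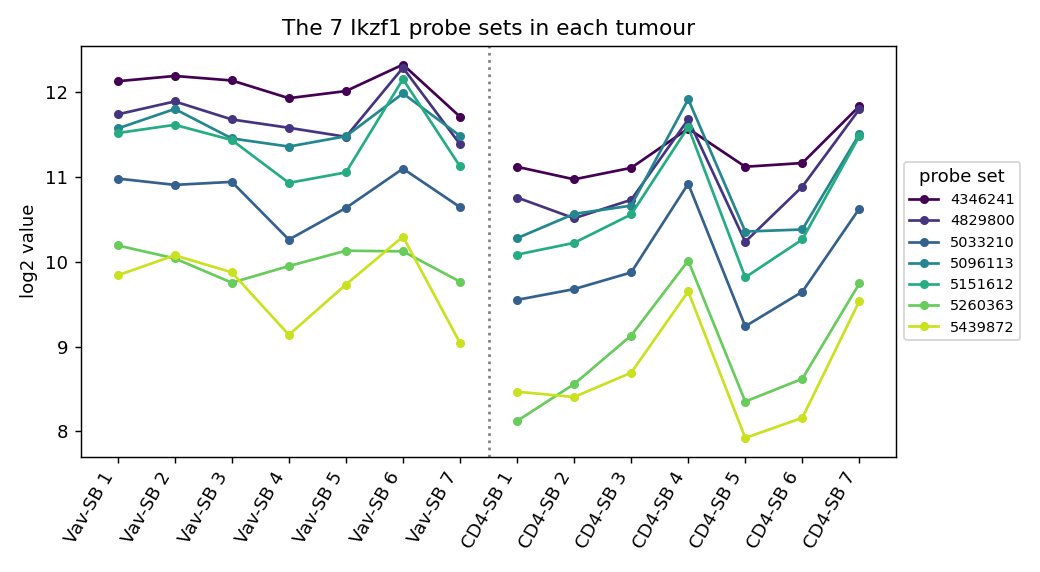
Log2 values of the 7 Ikzf1 probe sets in each tumour, Vav-SB left of the dotted line and CD4-SB right of it; each line links the values of 1 probe set within a model, and the order of tumours has no meaning. The lines run nearly parallel, and in CD4-SB they stand highest in replicates 4 and 7.

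The 2 CD4-SB tumours with high Ikzf1 stayed within the CD4-SB range in Notch1 and in the mean of a Notch pathway list. A list of 10 genes of that pathway, which Ikaros is known to restrain in mouse thymocytes, had mean levels of 8.17 to 9.52 in Vav-SB and 7.46 to 7.92 in CD4-SB. CD4-SB replicates 4 and 7 were at 7.62 and 7.46 there, inside the range of their own model. Notch1 itself, the receptor, was at 7.58 and 7.34 in CD4-SB replicates 4 and 7, within the CD4-SB range of 7.30 to 7.98. Gene by gene, Nrarp of both (7.28 and 6.475), Heyl of replicate 4 (7.47) and Myc of replicate 7 (10.98) lay inside the Vav-SB range. Their other values on the list lay below every Vav-SB tumour. Their Il2ra, at 6.34 and 5.91, was lower than in any other tumour and pulled their list means down. In all, 7 of the 10 listed genes were higher in Vav-SB and 0 lower, against 7.28% and 7.18% of all genes, with a median log2 difference of 1.26 against 0.00 over all genes. They included Notch3, a second receptor (2.45-fold, adjusted p = 0.000181), and the repressor Hes1 (2.14-fold, adjusted p = 0.000231).

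**Figure D3:**
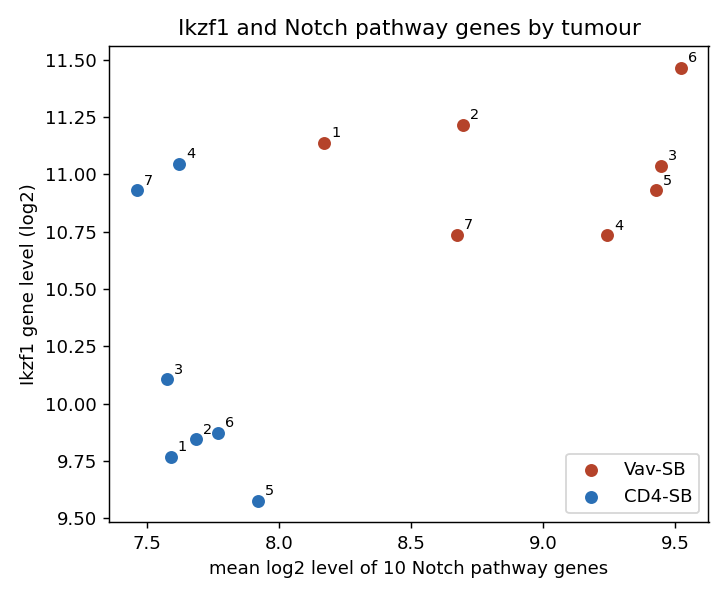
Ikzf1 gene level (vertical axis, log2) against the mean log2 level of 10 Notch pathway genes (horizontal axis) in Vav-SB (red) and CD4-SB (blue) tumours; numbers are replicates. CD4-SB replicates 4 and 7 reach Ikzf1 levels of 11.05 and 10.93 at Notch pathway levels of 7.62 and 7.46.

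Other features of the tumours were set beside Ikzf1. The gene for the interleukin-23 receptor, Il23r, was at 10.60, 10.60, 11.50 and 11.06 in CD4-SB replicates 1, 2, 5 and 6, whose Ikzf1 levels were 9.58 to 9.87. It was at 6.57, 5.69 and 5.40 in CD4-SB replicates 3, 4 and 7, and at 5.34 to 7.03 in Vav-SB. CD4-SB replicate 3 thus paired low Il23r with an Ikzf1 level of 10.11, below every Vav-SB tumour. Il23r was called lower in Vav-SB (limma, adjusted p = 0.0474), a call that ended without any 1 of 11 tumours. On its list of 5 measured genes of innate-like and gamma-delta T cells, Sox13 and Cd163l1 were called higher. The counts were 2 higher and 1 lower, against 7.28% and 7.18% of all genes. The Sox13 call ended in 3 of the 9 alternatives other than leaving out 1 tumour. Over those 9 its difference was as low as 0.06 and its adjusted p up to 0.710 (limma). The mean level of 36 markers of B, myeloid, dendritic and stromal cells averaged 7.42 ± 0.20 across Vav-SB tumours and 8.05 ± 0.38 across CD4-SB tumours (SD, n = 7 each; exact permutation p = 0.00291, two-sided). Of these markers, 6 of 11 myeloid, 1 of 6 dendritic and 2 of 9 stromal genes were lower in Vav-SB, 1 stromal gene was higher, and 0 of 10 B-cell genes passed (limma; 5 had an unadjusted p below 0.05). Blk, counted among the B-cell genes, was at 10.58, 9.64, 10.55 and 10.48 in CD4-SB replicates 1, 2, 5 and 6, those with high Il23r. It was at 6.62 to 7.14 in CD4-SB replicates 3, 4 and 7, so the marker level may not reflect other cells alone. With that level as a covariate the Ikzf1 difference was 0.54 and its call ended (limma, adjusted p = 0.391), while the number of genes called went to 555, against 2284 without it. The same fit ended the calls of Il23r, Sox13 and Cd163l1 (-1.61, 0.43 and 1.28, adjusted p = 0.561, 0.129 and 0.342). It also ended those of Cd3g and Cd2 (0.36 and 0.55, adjusted p = 0.145 and 0.438). CD4-SB replicates 2 and 7 had marker levels of 7.55 and 7.62, inside the Vav-SB range of 7.26 to 7.78, beside Ikzf1 levels of 9.84 and 10.93. CD4-SB replicate 4, with an Ikzf1 level of 11.05, was at 7.89. CD4-SB replicates 1, 3, 5 and 6 had higher marker levels, at 8.56, 8.29, 8.36 and 8.08. Their Ikzf1 levels were 9.77, 10.11, 9.58 and 9.87. A relation of marker level and Ikzf1 within CD4-SB was not tested. In bulk tumours fewer cells that express a gene and less RNA per cell cannot be told apart. The Ikzf1 call also ended with a median over probe sets in place of the mean (0.81, adjusted p = 0.0666).

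Ikzf2 was measured with wide spread in both models and no call was made. Its level in Vav-SB replicates 1 to 7 was 10.62, 11.15, 9.53, 10.03, 10.24, 10.99 and 9.74. In CD4-SB replicates 1 to 7 it was 8.46, 9.22, 10.19, 10.46, 10.19, 9.48 and 9.79. The models overlapped, with 3 Vav-SB tumours above every CD4-SB tumour and 3 CD4-SB tumours below every Vav-SB tumour. The means were 10.33 ± 0.62 for Vav-SB tumours and 9.68 ± 0.69 for CD4-SB tumours (SD, n = 7 each), a log2 difference of 0.65 with a 95% interval from -0.04 to 1.33 (limma, adjusted p = 0.206). Each of the 11 probe sets was higher on average in Vav-SB, by 0.46 to 0.92, and 0 passed (limma; 1 had an unadjusted p below 0.05). In diffSplice 0 of the 11 passed and 0 had an unadjusted p below 0.05 (lowest 0.497). That test compares the models and pools the tumours of each. It also counts spread shared by the probe sets as error, so a lack of calls does not show that they moved alike.

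In CD4-SB replicate 6, 3 Ikzf2 probe sets were high and several of the others low. Probe set 4579777 was at 11.30 in that tumour, against 7.66 to 9.24 in the other 6 CD4-SB tumours and 8.88 to 10.72 in Vav-SB. It was the highest of the 14 tumours for this probe set. Probe set 4747382 was at 11.26, against 8.65 to 10.39 in the other CD4-SB tumours, and probe set 5030001 at 11.85, against 9.74 to 11.33. Both were the highest of CD4-SB, and Vav-SB replicates 2 and 6 lay above them. Of the remaining 8, probe set 4934991 was at 6.95, within the 6.10 to 8.46 of the other CD4-SB tumours and with a relative level of -0.04, and 5369854 was at 9.89, above replicates 1 and 2. Probe set 5387174 was at 8.97 and 4566083 at 8.98, where the other CD4-SB tumours apart from replicate 1 lay between 10.13 and 11.10 and between 10.27 and 11.02. Replicate 1 was at 8.86 and 8.90 for these 2 probe sets, and its Ikzf2 gene level of 8.46 was the lowest of the 14 tumours.

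Set as means, the 3 high probe sets of CD4-SB replicate 6 averaged 11.47 and its other 8 averaged 8.73, a difference of 2.74 on the log2 scale. In the other 13 tumours the same difference lay between -0.27 and 0.56. The 3 probe sets were picked for their level in this tumour, so these values are a description. Relative to the gene, 5 of the 11 Ikzf2 probe sets stood apart in CD4-SB by Dixon's test, each time in replicate 6, against 6.43% of all probe sets in CD4-SB, and 0 of 11 stood apart in Vav-SB. Of the 5, the 3 high ones lay 2.57, 1.6 and 1.33 above the median of the tumours and the 2 low ones stood at -1.12 and -1.18. The low values are partly built in, because the 3 high probe sets raise the gene mean they are set against. The SD of relative levels over the 11 probe sets was 1.27 in replicate 6. Among 427 other genes with 11 probe sets and a level above the median of all genes, 0 had a larger SD in that tumour, and their median was 0.31.

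**Figure D4:**
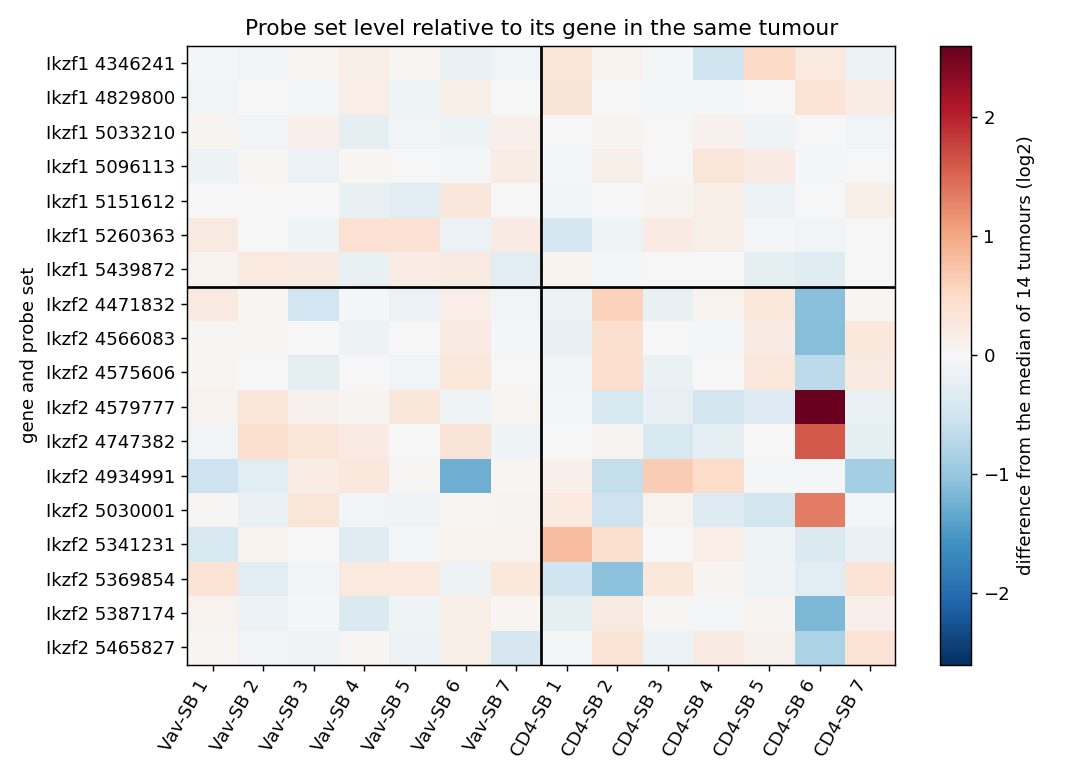
Level of each Ikzf1 and Ikzf2 probe set relative to its gene in the same tumour, as the difference from the median of the 14 tumours (log2; red above, blue below), with Vav-SB columns left of the vertical line and CD4-SB columns right of it. The column of CD4-SB replicate 6 holds Ikzf2 probe sets at 2.57, 1.6 and 1.33 beside others at -1.12 and -1.18, while Ikzf1 stays between -0.52 and 0.50 in all 14 columns.

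**Figure D5:**
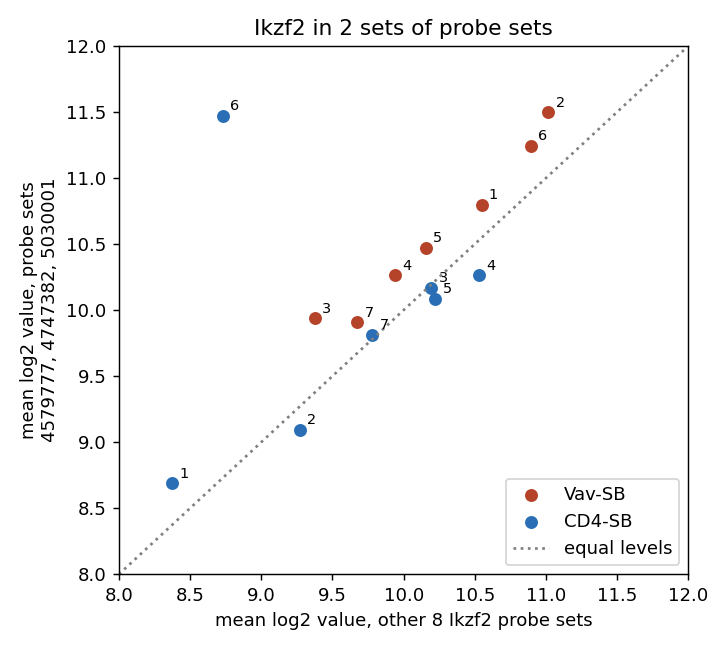
Mean log2 value of Ikzf2 probe sets 4579777, 4747382 and 5030001 (vertical axis) against the mean of the other 8 Ikzf2 probe sets (horizontal axis) in Vav-SB (red) and CD4-SB (blue) tumours; numbers are replicates and the dotted line marks equal levels. CD4-SB replicate 6 lies at 11.47 and 8.73, and the other 13 tumours stay within -0.27 and 0.56 of the line.

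Marker genes of other lymphocytes that express Ikzf2 were also looked at in CD4-SB replicate 6. Its mean level of 9 NK-cell genes was 7.83, the highest of the 14 tumours, against 5.83 to 6.35 in Vav-SB and 6.09 to 7.64 in the other CD4-SB tumours. Its Ncr1, an NK-cell receptor gene, was at 7.96, against 4.92 to 5.43 in Vav-SB, and 0 of the 9 genes passed between the models (limma; 4 had an unadjusted p below 0.05). The NK level of CD4-SB replicate 3 was nearly as high, at 7.64, and the 2 sets of Ikzf2 probe sets differed by -0.03 there. Foxp3, the defining factor of regulatory T cells, was near the median gene level in replicate 6, at 7.35, as it was in the other tumours of both models. The part of NK-cell RNA in the uneven Ikzf2 levels was not tested. CD4-SB replicates 5 and 7 share the title number of replicate 6, and their 2 sets differed by -0.14 and 0.04.

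A smaller unevenness of the Ikzf2 probe sets was seen in CD4-SB replicate 2. Its probe set 5369854 was at 8.85 with a relative level of -1.07, and 4579777 and 5030001 had relative levels of -0.41 and -0.54, while 4471832, 4566083 and 4575606 were 0.60, 0.42 and 0.44 above. CD4-SB replicate 1, which shares its title number, was also low in 5369854, at 8.63, against 9.89 to 11.22 in the other 5 CD4-SB tumours and 10.16 to 11.67 in Vav-SB. Neither tumour stood apart there by Dixon's test. In Vav-SB replicate 6 a single probe set, 4934991, had a relative level of -1.27, at a level of 7.23, the lowest of the Vav-SB range of 7.23 to 8.37. The SD of relative levels was 0.56 in CD4-SB replicate 2 and 0.44 in Vav-SB replicate 6, and 36 and 28 of the 427 other genes had a larger one in the same tumour.

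Ikzf1 and Ikzf2 were compared over the tumours of each model. Pearson's r was 0.75 in Vav-SB (Spearman's rho 0.71, n = 7; exact permutation p = 0.0571 and 0.0881, two-sided) and 0.47 in CD4-SB (rho 0.57, n = 7; exact permutation p = 0.282 and 0.20). Adjusted over the 2 relations, p was 0.114 for r and 0.176 for rho in Vav-SB, and 0.282 and 0.20 in CD4-SB (exact permutation). Without the 2 tumours farthest from the median of Ikzf1, r came to 0.71 over Vav-SB and 0.14 over CD4-SB tumours (n = 5 each). Neither relation passed. The genes whose levels ran most like Ikzf1 over the 14 tumours were Cox19, Zfp326 and Brd3, with Pearson's r of 0.93, 0.93 and 0.92. With the model means subtracted they were Exosc5, Ndufv1 and Nelfa, at 0.93, 0.92 and 0.92. Those most like Ikzf2 were Cacfd1, Thumpd2 and Kcnv1 (0.88, 0.86 and 0.86), and with model means subtracted Calb1, Cacfd1 and Kcnv1 (0.87, 0.85 and 0.84). They are the highest of 14164 genes on 14 tumours that share models and title numbers, and are given as a description.

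Genes of the protein partners of Ikaros were called about as often as genes at large, 14.5% of which passed in either direction. Of 12 measured genes of NuRD, the chromatin remodelling and histone deacetylase complex that Ikaros joins in lymphocytes, 0 were higher in Vav-SB and 1 lower, against 7.28% and 7.18% of all genes. The 1 was Chd3, a remodelling subunit, 2.02-fold lower (7.21 ± 0.64 in Vav-SB and 8.22 ± 0.55 in CD4-SB, SD, n = 7 each; limma, adjusted p = 0.0304). Its call ended without any 1 of 8 tumours (adjusted p up to 0.0663), with 1 tumour per title number (0.0562) and with a median over probe sets (0.0524). The related subunit gene Chd4 averaged 10.34 across Vav-SB tumours, against 10.18 across CD4-SB tumours (adjusted p = 0.324). The list's median log2 difference was 0.02. Of 8 other corepressors and chromatin partners, 2 were higher in Vav-SB and 0 lower, namely Sin3b, a corepressor scaffold (1.43-fold, adjusted p = 0.000628), and Ezh2, the catalytic subunit of Polycomb complex 2 (2.31-fold, adjusted p = 0.00311). Ezh2 ran between 10.69 and 11.46 across Vav-SB tumours, against 9.52 to 11.02 across CD4-SB tumours. In CD4-SB it was highest in replicate 4, at 11.02, and replicate 7, at 10.52, which were also the tumours with high Ikzf1. With the marker level as a covariate, the calls of Chd3, Sin3b and Ezh2 ended at -1.01, 0.42 and 0.49 (adjusted p = 0.238, 0.0550 and 0.283). The same fit called 2 other NuRD genes lower in Vav-SB, Mta1 (-0.80, adjusted p = 0.0257) and Rbbp7 (-0.77, adjusted p = 0.0213), so its NuRD count was 2. Of 4 measured kinase and phosphatase genes whose products act on Ikaros, Csnk2a2, Csnk2b, Ppp1ca and Ppp1cb, 0 passed, and 0 had an unadjusted p below 0.05.

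Of 10 measured lymphoid genes with control regions that Ikaros binds in mouse cells, a list chosen with these differences known, 6 were higher in Vav-SB and 1 lower, against 7.28% and 7.18% of all genes. The 6 were Dntt, Rag1 and Rag2 of antigen receptor rearrangement and the coreceptor genes Cd8a, Cd8b1 and Cd4, and the 1 was the cell cycle inhibitor Cdkn1a. Their median log2 difference was 1.75. In CD4-SB replicate 4, with high Ikzf1, the list's mean was 7.15. In CD4-SB replicate 7 it was 6.24, the lowest of the 14 tumours. Cd8a of replicate 4, at 10.99, lay inside the Vav-SB range. Cd8b1 of that tumour, at 9.89, was just below the lowest Vav-SB value of 9.92. Its Dntt, Rag1, Rag2 and Cd4 lay below every Vav-SB tumour, as did all 6 higher genes in replicate 7. Rag2 of CD4-SB replicate 6, at 8.49, lay inside the Vav-SB range. Dntt, Rag1, Cd4, Cd8a and Cd8b1 of replicate 6 lay below every Vav-SB tumour, with Rag1 the highest of CD4-SB. Helios is raised in mouse thymocytes under strong T-cell receptor signals. Of 8 measured genes of such signals, 0 were higher in Vav-SB and 1 lower, against 7.28% and 7.18% of all genes. Of the 8, 4 had an unadjusted p below 0.05 (limma), and the count called ran from 0 to 3 in the alternatives. The 1 called lower was Pdcd1, the inhibitory receptor PD-1 (3.21-fold lower, adjusted p = 0.00915). Its call ended with 1 tumour per title number (-1.31, adjusted p = 0.0594). Of 6 measured genes of regulatory T cells, 0 were higher and 1, the integrin gene Itgae, was lower in Vav-SB (2.71-fold, adjusted p = 0.0274). The Itgae call ended without any 1 of 5 tumours (adjusted p up to 0.059), and when each title number gave 1 tumour (0.0883). With the marker level as a covariate the calls of Cdkn1a, Pdcd1 and Itgae ended, at -0.60, -1.67 and -1.16 (limma, adjusted p = 0.323, 0.134 and 0.324). It also ended those of Rag2 (3.54, adjusted p = 0.0534) and Cd4 (1.72, adjusted p = 0.0525), which left 4 higher lymphoid genes, and it called the regulatory T-cell gene Nrp1 higher (1.82, adjusted p = 0.0152).

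The other 2 family genes did not pass. Ikzf4 (Eos), with 10 probe sets, averaged 7.11 ± 0.08 across Vav-SB tumours and 7.17 ± 0.12 across CD4-SB tumours (SD, n = 7 each; limma, adjusted p = 0.651). Its log2 difference was -0.06, with a 95% interval from -0.21 to 0.09, and it turned to 0.19 with a median over probe sets. Ikzf5 (Pegasus), with 3 probe sets, averaged 6.85 ± 0.29 across Vav-SB tumours and 6.62 ± 0.36 across CD4-SB tumours, a difference of 0.23 with an interval from -0.13 to 0.59 (adjusted p = 0.411).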

How the data were processed

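RNA of frozen tumours was amplified from little input and hybridised to mouse exon arrays, per the labels' protocols. The deposited table holds log2 values for 194293 probe sets and 1 column per tumour; the submitters' processing notes name RMA and Partek, base 2 was inferred from their range (2.03 to 14.03), and any filter is not given in the sources used here. Column medians lay between 7.46 and 7.50, pairs of tumours correlated at 0.877 to 0.968, and no columns were the same. Precision is limited by how many arrays there are.

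GEO's platform annotation paired 179496 probe sets with 1 symbol, 1328 with several and 13469 with none; only the first were named, with symbols updated through RefSeq of GRCm38.p6. The strain label set the groups, and replicate numbers follow accession order. Differences are Vav-SB minus CD4-SB, tested with limma 3.58.1 in R 4.3.3 (lmFit, eBayes, and diffSplice on 177027 probe sets of 14165 genes with at least 3), with Benjamini-Hochberg adjustment over all features, a threshold of 0.05 and no filter on dim genes. Every adjusted p of a gene is from limma. Dixon's ratio within 7 tumours was called above 0.568. Permutation tests used scipy 1.17.1.

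In simulated data on 15803 genes, the gene test recovered 44.0% of genes shifted by 0.5 log2, 82.0% by 1 and 98.0% by 2, with 8 false calls. On 177027 simulated probe sets diffSplice recovered 62.0% of probe sets shifted by 1 and 97.0% by 2. It also made 391 calls in unchanged genes, so its background share may be too high. The simulated probe sets were drawn independently, whereas those of a gene share spread over tumours in the data, so these figures may not hold there. Dixon's ratio found 62.2% of single tumours raised by 2 log2.

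The members and the gene lists were chosen with earlier results of these data known. The genes named are the family, up to 4 genes per list past the threshold, the 3 most like each member, and per member up to 3 probe sets with the largest deviation in 1 tumour. The other named probe sets, Chd4, Mta1, Rbbp7, Nrp1, Cd8a, Cd4, Foxp3, Ncr1, Cd3d, Cd3e, Nrarp, Heyl, Myc, Il2ra and Blk were named after their values were seen. Ikzf3, in the planned tests, had no probe set and no value. The alternatives were another normalization, summary, filter, prior, array weights, the title number, a marker covariate and leaving out each tumour.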

Additional observations from a re-analysis of the deposited data

Results flagged for a closer look

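In CD4-SB replicate 6, 5 Ikzf2 probe sets stood apart from the other 6 CD4-SB tumours in their level relative to the gene: 4579777 at 2.57, 4747382 at 1.6, 5030001 at 1.33, 4566083 at -1.12 and 5387174 at -1.18 (log2 difference from the median of 14 tumours). Chance sets 1 tumour apart in about 1 of 20 sets of 7 values, and 70 sets of Ikzf1, Ikzf2, Ikzf4 and Ikzf5 were examined (62 of probe sets and 8 of gene levels), of which 7 stood apart. The other 2 were Ikzf4 probe set 5372350 at -1.09 in Vav-SB replicate 3 and Ikzf5 probe set 4826525 at 0.62 in CD4-SB replicate 3. The 5 of Ikzf2 share 1 tumour and 1 gene mean and so are not independent. The cause was not tested: insertion sites and probe set positions were not used here.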

How the results depend on the processing

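The Ikzf1 difference kept its sign throughout and its call in 21 of 23 alternatives; it ended with the median of its probe sets in place of their mean (0.81, adjusted p = 0.0666) and with the marker covariate (0.54, adjusted p = 0.391), where the cause was not tested. Leaving out 1 tumour gave 0.77 to 1.02 (adjusted p = 0.00433 to 0.0395). Ikzf2 stayed uncalled in all 23 (0.44 to 0.78 without 1 tumour, 0.39 to 0.77 otherwise). The count of 4 called member probe sets went to 2 with 1 tumour per title number, to 0 with the marker covariate and to between 2 and 7 without 1 tumour; it was 7 without CD4-SB replicate 4 or 7, the 2 with high Ikzf1. The count of called genes was 555 with the covariate and 1628 to 2518 without 1 tumour. The counts of Ikzf1 and Ikzf2 probe sets apart from their gene in diffSplice stayed at 0. Ikzf1 and Ikzf2 probe sets apart in 1 tumour numbered 5, and 6 with a gene median or quantile normalization, both chosen after seeing the data. In 2 genes the sign turned, with no call after the turn: Ikzf4 with a median over probe sets (0.19) and Itgax with the covariate (0.14), which holds Itgax itself. The calls of Chd3, Pdcd1 and Itgae ended when each title number gave 1 tumour (adjusted p = 0.0562, 0.0594 and 0.0883). So did those of Il23r and Cd2 (adjusted p = 0.0717 and 0.196). Ikzf3 alternatives were not run. No paired analysis was possible because the labels number no pairs across the models.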
